A study of Triticum aestivum with 24 samples.

Results

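The stage by water difference in wheat flag leaves is the change in transcript signal between dry and wet plants at grain filling, less the same change at heading, averaged over the cultivars TAM 112 and TAM 111. It was computed on the log2 scale from 24 of the 24 arrays in the series, so that 6 arrays stood in each combination of stage and water. A positive difference means that dry leaves were higher relative to wet leaves at grain filling than they were at heading, and a negative difference means the opposite. Choosing the arrays by stage, water and cultivar used no measured value.

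Common wheat (Triticum aestivum) was grown in a greenhouse, and RNA of the flag leaf was measured on Affymetrix wheat arrays, 1 sample per array. The 8 groups had 3 arrays each. They were TAM 112 at grain filling, dry and wet, TAM 111 at grain filling, dry and wet, TAM 112 at heading, dry and wet, and TAM 111 at heading, dry and wet. Water was held at 90% or 50% of field capacity, and the labels do not say which of these levels is the one called dry. They also leave unsaid what a replicate is, a plant, a pot or a repeat of one extract, and p-values here rest on the spread of these replicates, technical or not. The tissue is a whole leaf, and fewer cells of a type cannot be told apart from less RNA per cell.

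The flag leaf is the uppermost leaf of the wheat plant and a main source of the sugar that fills the grain. Heading is the time when the ear emerges, and grain filling follows flowering, when the leaf exports carbon and nitrogen and moves towards senescence. In drying leaves, plant cells are known to make late embryogenesis abundant (LEA) proteins and dehydrins, which are hydrophilic proteins linked to tolerance of water loss, to release sugars from stored fructan, and to turn down photosynthesis and growth.

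Of 61179 probe sets that are not controls, 37516 were bright enough to be tested. The tissue label was checked on marker genes, and 7 of 7 photosynthesis genes were tested, with mean signals between 14536 for FBP and 54272 for rbcl. Of 15 genes for grain storage proteins and inhibitors, 5 were tested. Among these the glutenin gene LMW-GS had a mean signal of 88.89 and the gliadin gene Gli-8 one of 151.1, while the avenin-like gene ALP reached 6855. Array medians lay between 60.5 and 77.3. Pearson's r across probe sets, which are not independent replicates, was 0.951 to 0.971 within groups and 0.864 to 0.962 between them.

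The water response differed between grain filling and heading for 7344 of 37516 probe sets (19.6%; limma, Benjamini-Hochberg adjusted p below 0.05, the criterion used for every call here). The difference was positive for 3315 (8.84%) and negative for 4029 (10.7%). It was at least 2-fold for 1097 of the positive and 1138 of the negative ones, and at least 4-fold for 258 and 127. The median difference over all tested probe sets was -0.07. The same contrast can be read as the stage change in dry leaves less the stage change in wet leaves.

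The share of called probe sets depended on brightness. Between mean signals of 1000 and 3000, 1071 of 5314 probe sets had a called positive and 898 a called negative difference, with a median of 0.02. Above 10000, 83 of 937 were positive and 362 (38.6%) negative, with a median of -0.22. At or under 100, 162 of 10818 were positive and 247 negative, and the median standard error there was 0.48 on the log2 scale, against 0.11 above 10000.

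The split by sign depended on how the arrays were put on one scale. The deposited signals had been scaled to a common trimmed mean, and under this scaling 45.1% of the called differences were positive. Centring each array on its median made 55.3% of 7161 calls positive, and quantile normalization 48.1% of 7133. RNA controls of fixed amount that are added at hybridisation (bioB, bioC, bioD and cre) were on 27 probe sets, of which 26 had a negative difference and 1 a positive one of 0.06. The 18 used for scaling here, all but 9 wheat-array versions, ran from -0.81 to -0.21 with a median of -0.33. Averaged per array and set against the mean of all arrays, they stood at -0.19 ± 0.16 in dry and 0.31 ± 0.31 in wet leaves at grain filling, and at -0.12 ± 0.07 in dry and 0 ± 0.15 in wet leaves at heading (log2, SD, n = 6 arrays each). The difference of these averages was -0.38 (SE 0.16), and -0.29 (SE 0.14) without TAM 112 grain filling wet replicate 1, the array farthest from the mean. Scaling the arrays on these controls was tried because of their values. With it the median of all tested probe sets moved to 0.31 and 6328 were called, 5797 positive and 531 negative. Of these, 3846 were called with the same sign under the authors' scaling. With all 27 control probe sets, 5305 were positive and 561 negative.

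A second family of controls moved differently. The bacterial RNAs dap, lys, phe and thr, which can be added before labelling (the labels do not say whether they were), are on 36 probe sets, of which 25 had a positive and 11 a negative difference, from -0.22 to 0.66 with a median of 0.05. Their array averages stood at -0.20 ± 0.23 in dry and -0.19 ± 0.12 in wet leaves at grain filling, and at 0.13 ± 0.10 in dry and 0.26 ± 0.09 in wet leaves at heading (log2, SD, n = 6 arrays each). Scaling on them, which was added after the values of the hybridisation controls were seen, moved the median to -0.19 and called 5163 probe sets, 1413 positive and 3750 negative, 4950 of them with the same sign as under the authors' scaling. The control families thus moved the split by sign in opposite directions, and differences below are relative to the trimmed mean of the arrays.

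**Figure D1:**
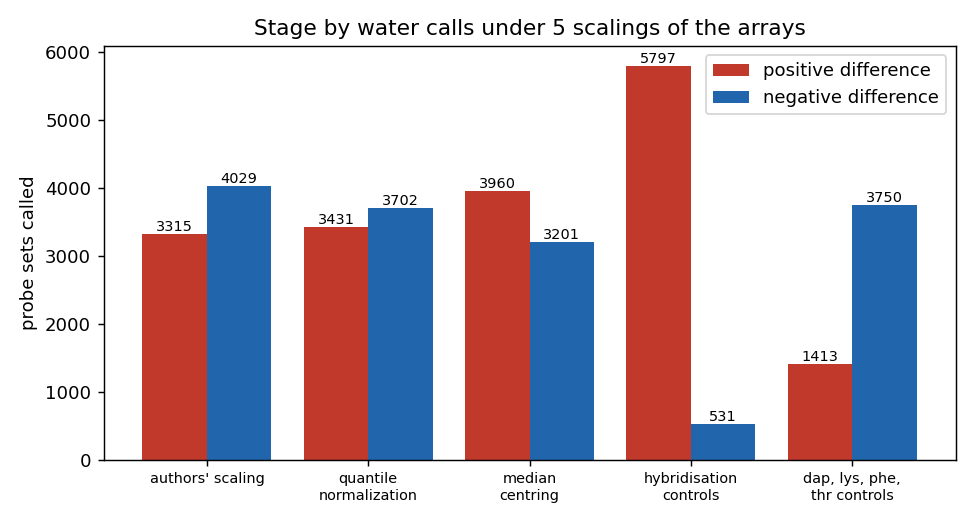
Number of probe sets called for the stage by water difference (y axis) under 5 ways of scaling the arrays (x axis), positive differences in red and negative ones in blue. The scaling on hybridisation controls called 5797 positive and 531 negative differences, that on the dap, lys, phe and thr controls 1413 and 3750, and the authors' scaling 3315 and 4029.

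Most called differences came from a water response at grain filling that was not called at heading. Dry and wet leaves differed for 13870 probe sets at grain filling (37.0%; 6148 or 16.4% higher and 7722 or 20.6% lower in dry leaves) and for 4061 at heading (10.8%; 1855 or 4.94% higher and 2206 or 5.88% lower). Scaled on the hybridisation controls, the numbers were 16800 at grain filling (90.1% of them higher, against 44.3% under the authors' scaling) and 1918 at heading (58.4% higher, against 45.7%). Scaled on the dap, lys, phe and thr controls, 72.3% of 3165 calls at heading were higher. Of the 3315 positive differences, 2512 (75.8%) belonged to probe sets that were higher in dry leaves at grain filling and not called at heading, and 369 to probe sets that were higher at both stages. Of the 4029 negative ones, 2923 (72.5%) came with a fall in dry leaves at grain filling and no call at heading, and 407 were lower at both stages. Scaled on the hybridisation controls, the classes of 2512 and 2923 held 5153 and 332, and on the dap, lys, phe and thr controls 1061 and 2528.

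A response at heading alone was rarer. A positive difference came with a fall in dry leaves at heading and no call at grain filling for 198 probe sets, and a negative difference with a rise at heading and no call at grain filling for 243. The response was called in opposite directions at the stages for 80 positive differences (higher at grain filling, lower at heading) and 190 negative ones (lower at grain filling, higher at heading). In 7 positive and 7 negative cases the response was called in the same direction at both stages and was larger at heading, and in 149 and 259 cases it was called at neither stage. The median positive difference was 0.75, with a median dry minus wet change of 0.72 at grain filling and 0 at heading. The median negative difference was -0.75, with -0.64 at grain filling and 0.10 at heading.

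**Figure D2:**
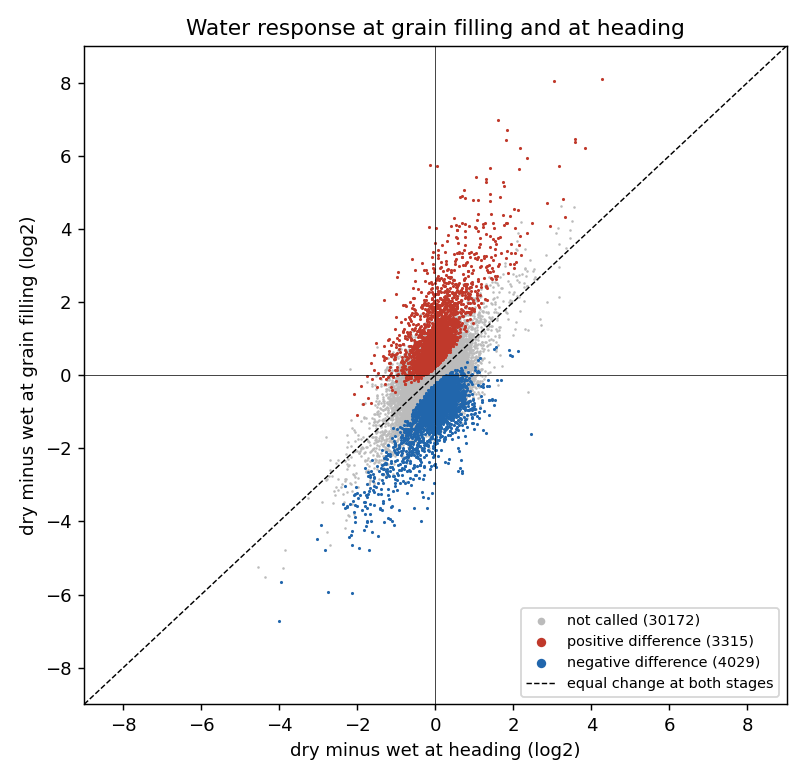
Each point is 1 of 37516 tested probe sets, with the mean log2 dry minus wet change of both cultivars at grain filling on the y axis and at heading on the x axis. Red and blue points are the 3315 positive and 4029 negative called differences, grey points were not called, and the dashed line marks an equal change at both stages.

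**Figure D3:**
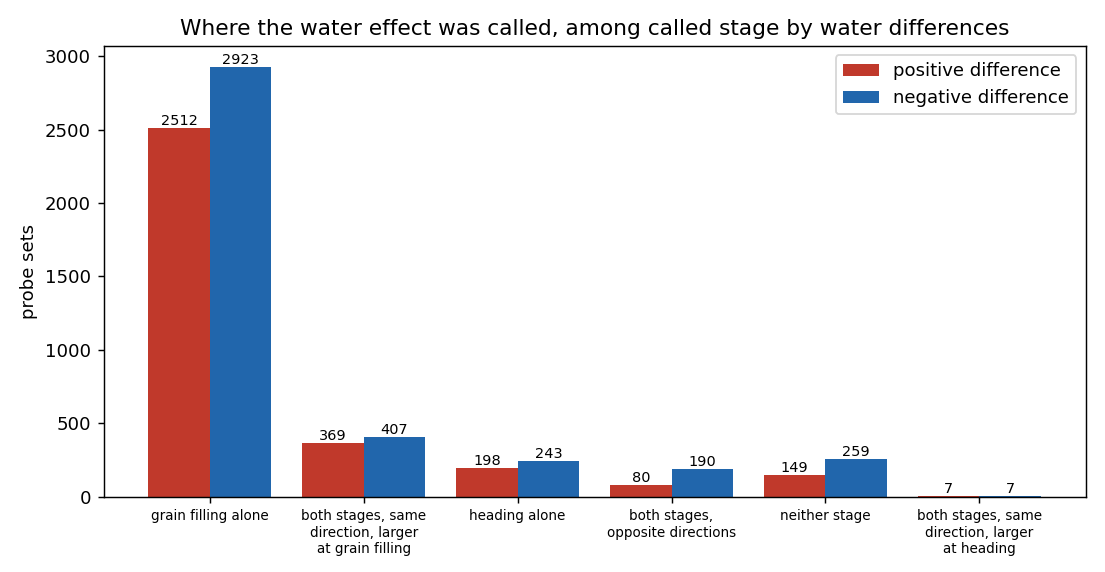
Number of called differences (y axis) by the stage at which the dry minus wet change was itself called (x axis), positive differences in red and negative ones in blue. The tallest bars, 2512 and 2923, are probe sets whose water response was called at grain filling alone.

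Read along development, more probe sets changed with stage in dry than in wet leaves under the authors' scaling. Between grain filling and heading, 14374 probe sets differed in dry leaves (38.3%; 6409 or 17.1% higher and 7965 or 21.2% lower at grain filling) and 3888 in wet leaves (10.4%; 1965 or 5.24% higher and 1923 or 5.13% lower). Scaled on the hybridisation controls, 9844 differed in dry leaves (55.6% higher, against 44.6% under the authors' scaling) and 6102 in wet leaves (6.51% higher, against 50.5%). Scaled on the dap, lys, phe and thr controls the order turned, with 14285 in dry leaves (80.7% higher) and 18331 in wet leaves (97.7% higher). Under the authors' scaling, for 2517 positive differences the probe set was higher at grain filling in dry leaves and not called in wet ones, and for 3011 negative differences it was lower at grain filling in dry leaves and not called in wet ones. The stage change was called in opposite directions in dry and wet leaves for 124 positive and 192 negative differences.

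The gene names available for this array cover few probe sets: 102 genes have a name beyond a locus number, in their symbol or a synonym, and 78 of them were tested. Of these 78, 10 had a called positive difference and 19 a called negative one at their brightest probe set, with a median of -0.06 against -0.07 over all tested probe sets. The counts of each gene group below stand against 8.84% positive and 10.7% negative calls over all tested probe sets. Scaled on the hybridisation controls, limma called 13 positive and 0 negative (21 and 5 at an unadjusted p below 0.05), and 55 of the 78 were above 0. Each of the 19 negative calls given in the following paragraphs ended on that scale. On the dap, lys, phe and thr controls 6 were positive and 17 negative, and the calls of COMT1, eIF4E, TPC1, WZF1, petC and SAHH ended. Rab15, hsp16.9A, PFK, SAHH, PsbP, PsbO, petC, rbcl, TSA, FKBP70, ALP, RPS29, Profilin, raftin1b and the second probe sets below lay outside the naming rule. They were chosen after their values were seen. Many probe sets named below carry a suffix for sequence shared with related transcripts, and wheat has closely related copies of most genes, so a signal may sum several of them.

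Of the 5 LEA protein and dehydrin genes, 2 were tested, LEA1 and Rab15, and they behaved differently in this contrast. LEA1, which encodes a late embryogenesis abundant protein, had the largest difference of the named genes. Its signal (lowest, median and highest of 6 arrays) was 1029, 1850 and 4091 in dry and 6.95, 44.07 and 76.2 in wet leaves at grain filling. At heading it was 34.99, 131.7 and 562 in dry and 42.22, 52.08 and 81.03 in wet leaves. The dry arrays at grain filling (lowest 1029) stood above the other 18 (highest 562, a dry array at heading), and at heading dry and wet arrays overlapped. LEA1 rose 42.4-fold in dry leaves at grain filling (log2 change 5.40, adjusted p = 6.79e-11), against a log2 change of 1.04 at heading (adjusted p = 0.0511). The stage by water difference was 4.36 (SE 0.477, adjusted p = 3.63e-06), with 4.77 in TAM 112 and 3.95 in TAM 111. Part of the wet signals lay near the added pseudocount of 11.71, and the difference was 4.73 with a pseudocount of 1 and 3.78 with one 4 times as large.

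Rab15, a dehydrin, responded at both stages by nearly the same amount. It was at 231.6, 330.8 and 637.5 in dry and 36.89, 69.4 and 96.85 in wet leaves at grain filling, and at 201.6, 375.1 and 1231 in dry and 14.97, 82.73 and 134.8 in wet leaves at heading. At each stage the 6 dry arrays lay above the 6 wet ones, which held for dry above or below wet in 15.8% of all probe sets at grain filling and 5.82% at heading. Rab15 rose 5.36-fold at grain filling (adjusted p = 3.92e-06) and 5.11-fold at heading (adjusted p = 4.76e-05). The difference of 0.07 was not called (95% interval -0.90 to 1.03, adjusted p = 0.946), and a second, dimmer probe set gave 0.36 (adjusted p = 0.696). The interval does not show that the responses are equal, since it reaches a near 2-fold difference either way.

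The small heat shock protein gene hsp16.9A, a chaperone gene, was dim, with a mean signal of 66.95. Its signals were 67.81, 127.5 and 316.6 in dry and 2.239, 3.134 and 17.75 in wet leaves at grain filling, and 10.8, 34.12 and 189.5 in dry and 3.607, 22 and 51.04 in wet leaves at heading. All dry arrays lay above all wet ones at grain filling, and the groups overlapped at heading. The difference of 2.18 was called (SE 0.692, adjusted p = 0.0294) and was 3.26 with a pseudocount of 1 and 1.27 with one 4 times as large. Its call was lost in 5 of the 24 fits that each left out 1 array, with differences of 2.09, 2.05, 1.94, 1.92 and 1.95 without TAM 111 heading wet replicate 1 or 2, TAM 112 heading wet replicate 3, TAM 111 grain filling dry replicate 2 or TAM 112 grain filling dry replicate 3 (adjusted p from 0.0505 to 0.0645). Without the 4 TAM 111 arrays numbered 2 it was 1.86 (adjusted p = 0.139).

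Fructan genes took both courses. Of 5 tested fructan and starch genes 1 had a called difference, which was positive, and the median was 0.16. 1-FEH, a fructan exohydrolase, which releases fructose from stored fructan, was at 13886, 16113 and 20894 in dry and 7092, 8102 and 10283 in wet leaves at grain filling. At heading it was at 7332, 7892 and 9276 in dry and 6860, 8077 and 8696 in wet leaves. The dry grain filling arrays alone were high, and the other 3 sets of arrays overlapped. 1-FEH rose 1.99-fold at grain filling and had a log2 change of 0.03 at heading (adjusted p = 0.89), which gave a difference of 0.96 (SE 0.129, adjusted p = 2.91e-05), called in TAM 112 (0.88) and in TAM 111 (1.04).

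6-FEH, a second fructan exohydrolase, rose at both stages. Its signals were 1313, 1718 and 2977 in dry and 467.8, 740.1 and 957.9 in wet leaves at grain filling, and 1033, 1441 and 1546 in dry and 427.1, 589.6 and 676.3 in wet leaves at heading. Dry and wet arrays did not overlap at either stage. 6-FEH rose 2.61-fold at grain filling and 2.38-fold at heading, and the difference of 0.13 was not called (95% interval -0.41 to 0.67, adjusted p = 0.789). AGP-S, the small subunit of the starch-synthesis enzyme ADP-glucose pyrophosphorylase, had a difference of 0.18 (adjusted p = 0.208).

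**Figure D4:**
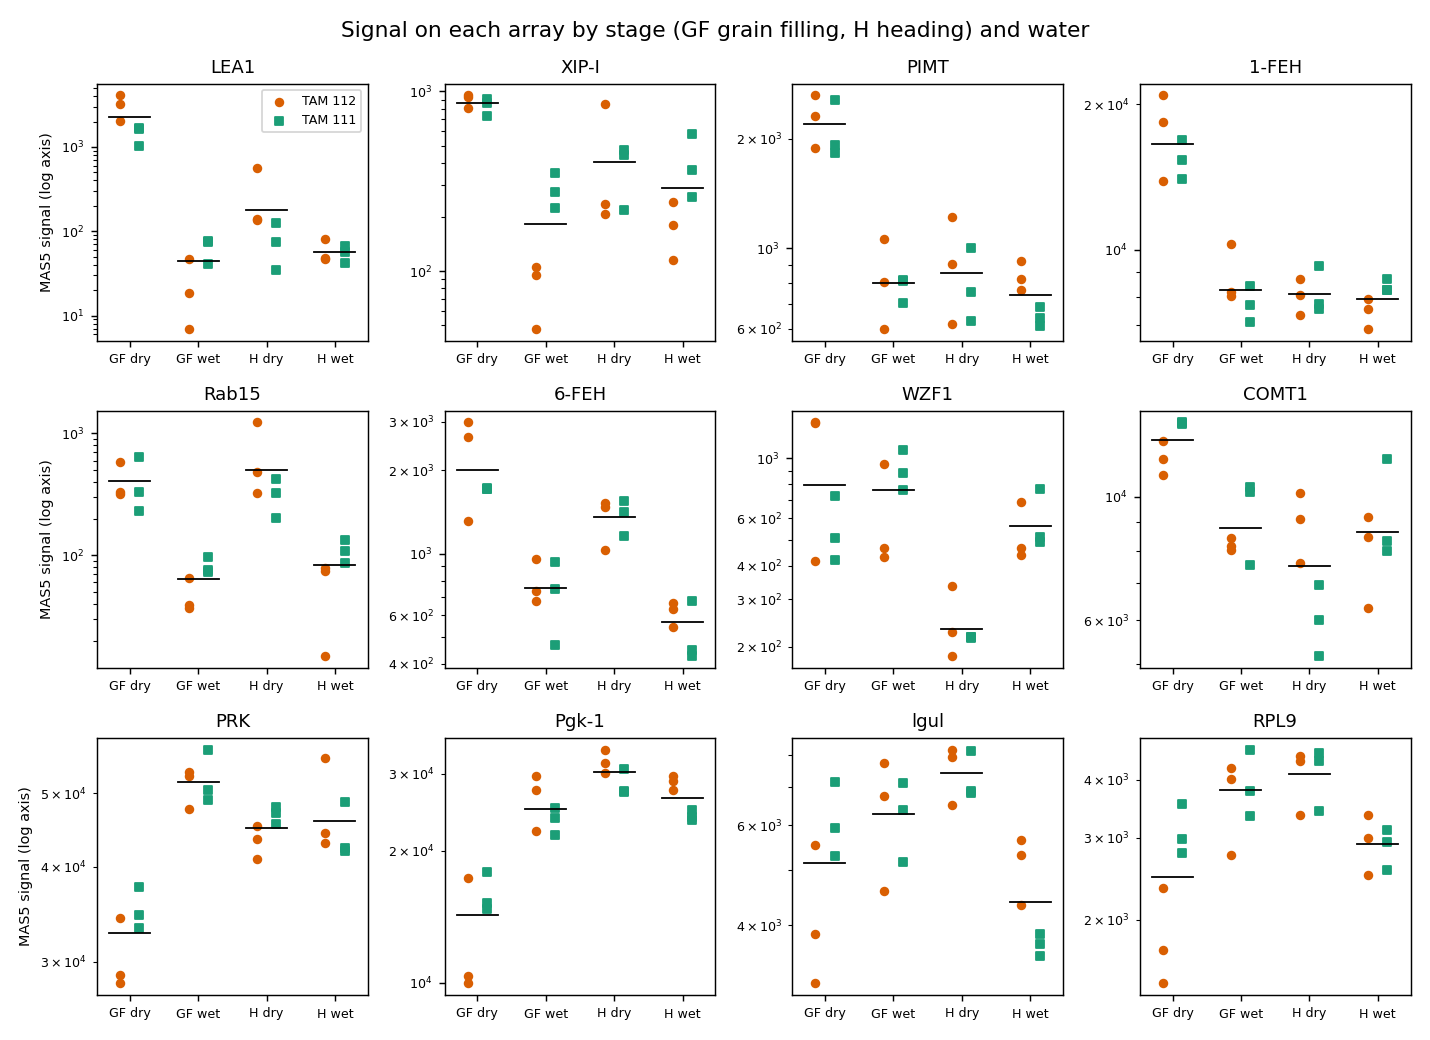
MAS5 signal of 12 genes on each of 24 arrays (y axis, log scale) by stage and water (x axis), TAM 112 as orange circles and TAM 111 as green squares, with a line at the mean of 6 arrays. For LEA1 and 1-FEH the 6 dry arrays at grain filling lie above the other 18, while for Rab15 and 6-FEH dry arrays lie above wet ones at both stages.

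Defence genes had positive and negative differences: of 4 tested, 2 were called positive and 1 negative, with a median of 0.31. XIP-I, an inhibitor of xylanases, was at 726, 885.9 and 951.8 in dry and 47.63, 164.6 and 349.6 in wet leaves at grain filling, and at 207.9, 338.6 and 850.2 in dry and 114.5, 250.5 and 582.9 in wet leaves at heading. Dry and wet arrays were apart at grain filling and overlapped at heading. XIP-I rose 5.40-fold at grain filling, its heading change of 0.44 was not called (adjusted p = 0.393), and the difference was 1.99 (SE 0.41, adjusted p = 0.00157). A second XIP-I probe set gave 1.73 (adjusted p = 0.0354). Glc1, a glucanase, rose 2.37-fold at grain filling, with a difference of 1.13 (SE 0.214, adjusted p = 0.000733).

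The thaumatin-like gene PR5, one of the pathogenesis-related genes, fell in dry leaves at both stages and by more at grain filling. It was at 63.11, 297.6 and 759 in dry and 632.4, 2059 and 9074 in wet leaves at grain filling, and at 875.1, 1517 and 1648 in dry and 2056, 3968 and 13256 in wet leaves at heading. The lowest wet array at grain filling overlapped the dry ones, and at heading dry arrays lay below wet ones. PR5 fell 8.79-fold at grain filling and 3.05-fold at heading, as averages over the cultivars. Mean signals at heading were 1520 in dry and 2206 in wet TAM 112 leaves, and 1305 in dry and 8746 in wet TAM 111 leaves. At grain filling they were 96.38 in dry and 1062 in wet TAM 112 leaves, and 568.3 in dry and 5080 in wet TAM 111 leaves. The difference was -1.53 (SE 0.4, adjusted p = 0.0091). It was -2.78 in TAM 112 (adjusted p = 0.00231) and -0.28 in TAM 111 (adjusted p = 0.87), but this contrast between the cultivars was not called after adjustment (-2.50, 95% interval -4.17 to -0.84, unadjusted p = 0.00498, adjusted p = 0.62). With cultivar as an additive term the PR5 difference of both cultivars had an adjusted p of 0.067. Scaled on the hybridisation controls it was -1.15 (adjusted p = 0.0534).

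Genes of methyl group metabolism were split as well, with 2 of 4 called positive, 1 negative and a median of 0.61. PIMT, which repairs damaged aspartyl residues in aged proteins, was at 1833, 2122 and 2638 in dry and 598.9, 807.5 and 1057 in wet leaves at grain filling. At heading it was at 615.8, 831 and 1220 in dry and 611, 727.9 and 918.8 in wet leaves. The 6 dry grain filling arrays lay above the 18 others. PIMT rose 2.73-fold at grain filling, its heading change was 0.17 (adjusted p = 0.557), and the difference of 1.27 (SE 0.218, adjusted p = 0.000304) was called in TAM 112 (1.41) and in TAM 111 (1.14).

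COMT1, a methyltransferase of lignin synthesis, rose 1.44-fold at grain filling and had a log2 change of -0.22 at heading (adjusted p = 0.233), with a difference of 0.75 (SE 0.156, adjusted p = 0.00162). The COMT1 difference was 0.34 in TAM 112 and 1.16 in TAM 111, and their contrast was not called (-0.82, adjusted p = 0.649). SAHH, which clears the by-product of methylation, rose 1.33-fold at heading (adjusted p = 0.00127) and had a log2 change of 0.09 at grain filling (adjusted p = 0.428). Its difference of -0.32 (adjusted p = 0.044) turned to 0.06 when scaled on the hybridisation controls, was -0.04 after quantile normalization, and was called in 7 of 24 fits that each left out 1 array. A second, dimmer SAHH probe set rose at both stages, by 0.40 at grain filling (adjusted p = 0.00209) and 0.70 at heading (adjusted p = 3.68e-05). The difference at that probe set, -0.30, was not called (adjusted p = 0.128).

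Photosynthesis genes were lower in this contrast as the authors scaled the arrays, and not under every scaling. Of 7 tested, 6 were called, each of them negative, with a median of -0.40, against 10.7% negative calls among all tested probe sets and 38.6% among those with a mean signal above 10000. After quantile normalization 2 were called negative, after median centring 3, and scaled on the hybridisation controls limma called 0 (0 also at an unadjusted p below 0.05), with 3 of the 7 then above 0. PRK, phosphoribulokinase of the Calvin cycle, was at 28088, 33742 and 37601 in dry and 47645, 51609 and 57112 in wet leaves at grain filling, and at 40976, 45436 and 47940 in dry and 41966, 43669 and 55602 in wet leaves at heading. All dry arrays lay under all wet ones at grain filling, and the groups overlapped at heading.

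PRK fell 1.58-fold in dry leaves at grain filling, against a log2 change of -0.02 at heading, and its difference of -0.64 (SE 0.101, adjusted p = 0.000145) was -0.26 when scaled on the hybridisation controls (adjusted p = 0.283). FBP, a fructose bisphosphatase of carbon fixation and sugar synthesis, had a difference of -0.48 (adjusted p = 0.000838), and the chloroplast thioredoxin Trx-M one of -0.40 (adjusted p = 0.00204). PsbP and PsbO, proteins of the oxygen-evolving part of photosystem II, had -0.37 and -0.42, and petC, the Rieske protein of electron transport, -0.32. The PsbP and petC differences turned to 0.01 and 0.06 when scaled on the hybridisation controls. After quantile normalization the differences were -0.14 for Trx-M, -0.09 for PsbP, -0.16 for PsbO and -0.05 for petC. None of these 4 was called. These values are for the brightest probe set of each gene. A second PsbP probe set, with a mean signal of 16610, had -0.80 under the authors' scaling (adjusted p = 0.0016). It was not followed under the other scalings. Leaving out single arrays ended the PsbO call in 10 of 24 fits and the petC call in 15, with adjusted p up to 0.0644 and 0.0784. For rbcl, the large subunit of Rubisco, the brightest probe set gave -0.26 (adjusted p = 0.21), and of 12 tested probe sets 2 were called negative and 0 positive.

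Of 3 tested genes listed under glycolysis by name, 2 were called, both negative, with a median of -0.83. PFK, phosphofructokinase, had -0.58 (adjusted p = 0.224). Whether the Pgk-1 probe set measures the glycolytic enzyme or a chloroplast form was not tested. Negative calls made up 10.7% of all tested probe sets. By mean signal they made up 38.6% above 10000, where Pgk-1 lay, and 26.7% between 3000 and 10000, where GAPN lay. At or under 100, where PFK lay, they made up 2.28%. On the scale of the hybridisation controls limma called 0 of the 3 genes (1 at an unadjusted p below 0.05), and the median was -0.45. Pgk-1, phosphoglycerate kinase, was at 9969, 14951 and 17852 in dry and 21694, 24432 and 29670 in wet leaves at grain filling, and at 27331, 30434 and 34081 in dry and 23517, 26174 and 29644 in wet leaves at heading. The dry arrays at grain filling were the lowest 6 of the 24. Pgk-1 fell 1.79-fold at grain filling, had a log2 change of 0.20 at heading (adjusted p = 0.265), and its difference was -1.04 (SE 0.148, adjusted p = 5.32e-05), with -1.27 in TAM 112 and -0.80 in TAM 111. On the scale of the hybridisation controls it was -0.66 (adjusted p = 0.0521). GAPN, a glyceraldehyde-3-phosphate dehydrogenase, fell 1.73-fold at grain filling, with a difference of -0.83 (SE 0.159, adjusted p = 0.000817).

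Among named genes at their brightest probe sets, RPL9 was the called one whose water response was called in opposite directions at the stages. A dim rbcl probe set, not the brightest of that gene, also fell at grain filling (-0.64, adjusted p = 0.0257) and rose at heading (0.70, adjusted p = 0.0442). RPL9, a protein of the large ribosomal subunit, was at 1459, 2557 and 3539 in dry and 2757, 3898 and 4644 in wet leaves at grain filling, and at 3354, 4398 and 4566 in dry and 2491, 2972 and 3351 in wet leaves at heading. Dry and wet arrays overlapped at grain filling, and at heading the dry ones lay above the wet ones. RPL9 fell 1.59-fold at grain filling (adjusted p = 0.000327) and rose 1.41-fold at heading (adjusted p = 0.0167), with a difference of -1.16 (SE 0.186, adjusted p = 0.000174). On the scale of the hybridisation controls the RPL9 difference was -0.78 (adjusted p = 0.0541). Of 7 tested translation genes 1 was called positive and 2 negative, with a median of 0.12. The others called were the elongation factor TEF1 (-0.55, adjusted p = 0.000556) and the cap-binding factor eIF4E (0.24, adjusted p = 0.0274). The eIF4E call was lost in 5 of 24 fits without 1 array and after quantile normalization (0.21, adjusted p = 0.0513). RPS29, also in this group, was not called at its brightest probe set (0.36, adjusted p = 0.743). A second, dimmer RPS29 probe set was called negative (-0.73, adjusted p = 0.0205).

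For lgul and WZF1 the water response was called at heading and not at grain filling. lgul, a glyoxalase, which removes the toxic sugar by-product methylglyoxal, was at 3162, 5420 and 7146 in dry and 4595, 6574 and 7717 in wet leaves at grain filling, and at 6512, 7411 and 8163 in dry and 3529, 4100 and 5646 in wet leaves at heading. At heading the dry arrays lay above the wet ones, and at grain filling they overlapped. lgul rose 1.70-fold at heading (adjusted p = 0.000469), its grain filling change of -0.32 was not called (adjusted p = 0.0682), and the difference was -1.08 (SE 0.188, adjusted p = 0.000342), or -0.70 on the scale of the hybridisation controls (adjusted p = 0.071). Of 6 tested redox and detoxification genes 2 were called, both negative, with a median of 0.05, the other being the peroxidase gene Prx1 (-0.57, adjusted p = 0.0117). GSTZ1, a glutathione transferase, had 0.32 (adjusted p = 0.0668) at its brightest probe set and 0.84 (adjusted p = 8.27e-06) at a second, while another gave 0.37 (adjusted p = 0.0968).

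WZF1, a zinc finger protein gene, was at 414.6, 614.8 and 1357 in dry and 430.7, 825.9 and 1071 in wet leaves at grain filling, and at 185.1, 217.9 and 337.4 in dry and 438.7, 501.4 and 768.8 in wet leaves at heading. Dry arrays lay below wet ones at heading and overlapped them at grain filling. WZF1 fell 2.32-fold at heading (adjusted p = 0.00268) and had a log2 change of -0.04 at grain filling (adjusted p = 0.925), which gave a difference of 1.18 (SE 0.359, adjusted p = 0.0237). The grain filling change averaged over unlike cultivars. Mean signals there were 1041 in dry and 616.1 in wet TAM 112 leaves, and 549.3 in dry and 907.6 in wet TAM 111 leaves. The WZF1 difference was 1.72 in TAM 112 (adjusted p = 0.0258) and 0.63 in TAM 111 (adjusted p = 0.588), and their contrast was not called (adjusted p = 0.789). The difference of both cultivars was not called without TAM 112 grain filling dry replicate 1 (1.04, adjusted p = 0.0516) or replicate 2 (1.03, adjusted p = 0.0512), nor without the 4 TAM 111 arrays numbered 2 (1.31, adjusted p = 0.0544). TPC1, a calcium-permeable channel, rose 1.80-fold at grain filling and 1.32-fold at heading, with a difference of 0.45 (adjusted p = 0.03). That difference was not called in 7 of 24 fits without 1 array. Nor was it called without the 4 TAM 111 arrays numbered 2 (adjusted p = 0.0899).

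Tubulins, the subunits of microtubules, had 2 calls among 6 tested, both negative, with a median of -0.25, against 10.7% negative calls over all tested probe sets. With scaling on the hybridisation controls the median was 0.13, 4 of the 6 were above 0, and limma called 0 (1 at an unadjusted p below 0.05). tubb3, a beta-tubulin, was at 1745, 3074 and 4400 in dry and 4708, 5688 and 6459 in wet leaves at grain filling, and at 4437, 5142 and 6615 in dry and 5167, 5509 and 6386 in wet leaves at heading. The dry grain filling arrays lay below all others. tubb3 fell 1.96-fold at grain filling, and its difference was -0.89 (SE 0.149, adjusted p = 0.000271), or -0.51 on the scale of the hybridisation controls (adjusted p = 0.0701). Tubb4, another beta-tubulin, had -0.52 (adjusted p = 0.00333), and the alpha-tubulin TUBA -0.16 (adjusted p = 0.191).

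Among histones and the HMG protein, chromatin proteins, 1 of 5 tested was called, a negative one, with a median of -0.48. The high mobility group gene Hmgb3 fell 1.61-fold at grain filling, with a difference of -0.48 (SE 0.112, adjusted p = 0.00393). A second Hmgb3 probe set, with a mean signal of 7092, had a difference of -0.24 that was not called (adjusted p = 0.141). It fell at grain filling (-0.55, adjusted p = 6.15e-06) and at heading (-0.31, adjusted p = 0.00971). Of 5 tested probe sets of the H2B gene wcH2B-8, 1 was called (-0.66, adjusted p = 0.0111), and the others had -0.57 (the brightest, adjusted p = 0.22), -0.23 (adjusted p = 0.565), -0.36 (adjusted p = 0.511) and 0.70 (adjusted p = 0.197). wcH2B-6 had -0.93 (adjusted p = 0.146). Of 3 gibberellin 20-oxidases, enzymes of growth hormone synthesis, limma called 0, with a median of -0.31. Their mean signals were 65.44, 61.18 and 56.17. At or under 100, positive calls made up 1.5% and negative calls 2.28% of all tested probe sets. limma also called 0 of 2 genes listed under pollen (median -0.04), raftin1b and Profilin, with mean signals of 44.42 and 26191. The same held for 5 grain storage and inhibitor genes (median 0.19). In each of these groups the number at an unadjusted p below 0.05 was 0 as well. The last group held differences of 0.51 for the inhibitor gene ATI-286, 0.25 for Gli-8 and -1.07 for LMW-GS (adjusted p = 0.658, 0.694 and 0.245). Outside the groups, TSA had -0.38 (adjusted p = 0.002, and 0.102 after quantile normalization) and the prolyl isomerase gene FKBP70 -0.45 (adjusted p = 0.0338), the second lost in 14 of 24 fits without 1 array.

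**Figure D5:**
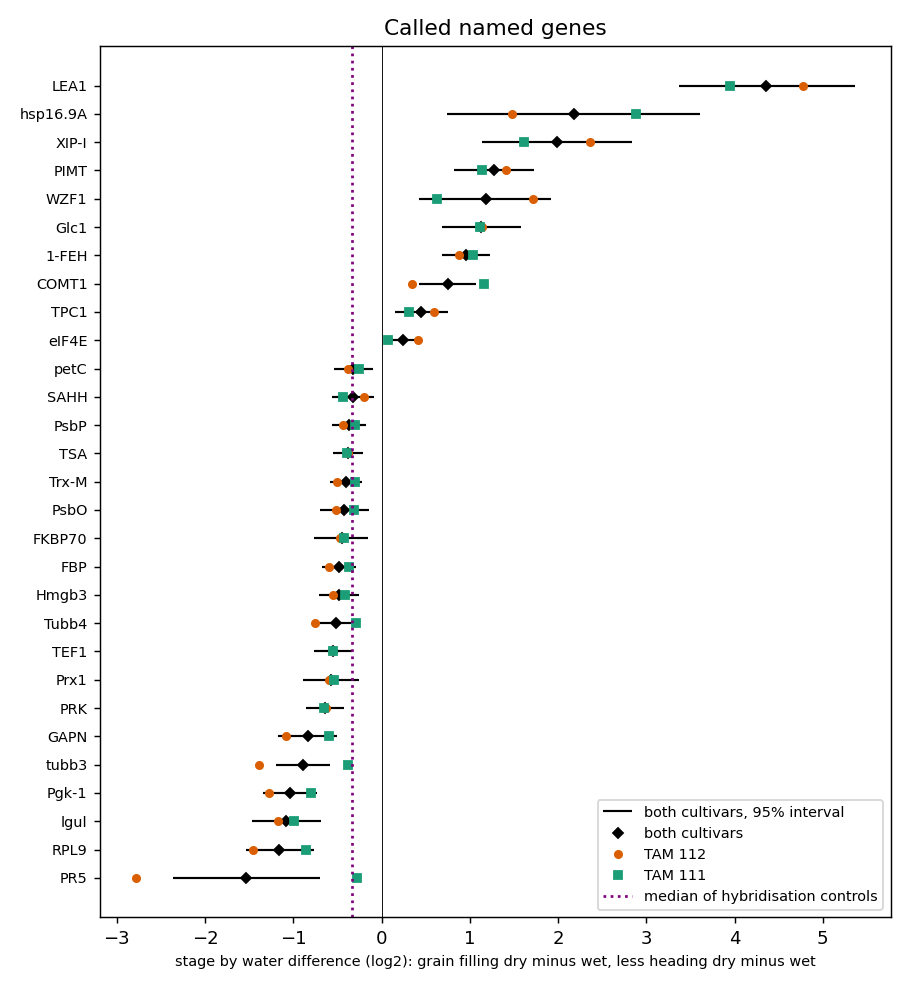
Stage by water difference (x axis, log2) of the 29 called named genes (y axis), as the mean of both cultivars with its 95% interval (black), with TAM 112 as orange circles and TAM 111 as green squares. The dotted line marks the median of the hybridisation controls at -0.33, and several called negative genes lie near it.

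The largest differences belonged to probe sets without a named gene. Ta.23970.1.A1_at was at 126.7, 1132 and 10787 in dry and 8.967, 11.54 and 59.96 in wet leaves at grain filling, and at 9.71, 18.92 and 93.36 in dry and 9.459, 26.98 and 63.45 in wet leaves at heading, a difference of 5.88 (SE 0.78, adjusted p = 2.54e-05). TaAffx.100380.2.A1_at was at 1168, 4719 and 8336 in dry and 38.18, 71.22 and 95.86 in wet leaves at grain filling, and its difference was 5.68 (SE 0.757, adjusted p = 2.65e-05). Both were high in dry leaves at grain filling alone, with overlapping arrays at heading.

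Ta.8356.1.S1_s_at was at 12.26, 32.5 and 129.3 in dry and 1414, 3014 and 5096 in wet leaves at grain filling, and at 118.3, 173.2 and 293.7 in dry and 537.8, 756.7 and 1488 in wet leaves at heading. Its arrays did not overlap at either stage, the wet ones being high at both, and the difference was -3.82 (SE 0.326, adjusted p = 2.27e-07). TaAffx.25602.1.S1_s_at was at 140.9, 246.4 and 292.1 in dry and 160.9, 536.2 and 3005 in wet leaves at grain filling, and at 103.4, 422.7 and 747.3 in dry and 33.11, 54.32 and 153 in wet leaves at heading. Dry and wet arrays overlapped at both stages, with the dry median the lower one at grain filling and the higher one at heading, and the difference was -4.07 (SE 0.733, adjusted p = 0.000491).

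The difference within each cultivar was taken from the 1 fit of all 8 groups, so the estimates rest on different arrays and share 1 estimate of the spread. It was called for 5428 probe sets in TAM 112 (14.5%; 2310 or 6.16% positive and 3118 or 8.31% negative) and for 1152 in TAM 111 (3.07%; 659 or 1.76% positive and 493 or 1.31% negative). Median centring made 53.8% of the TAM 112 and 67.3% of the TAM 111 calls positive, and scaling on the hybridisation controls 91.0% and 92.1%, against 42.6% and 57.2% under the authors' scaling. On the dap, lys, phe and thr controls 33.1% of the TAM 111 calls were positive. Of the 5428 TAM 112 calls, 5112 (94.2%) had the same sign in TAM 111 and 855 (15.8%) were called there with that sign. Of the 1152 TAM 111 calls, 1119 (97.1%) had the same sign in TAM 112 and 855 (74.2%) were called there. Calls with opposite signs numbered 0, and over all tested probe sets 68% had the same sign in both cultivars. The median size was 1.01 in TAM 112 for its own calls and 0.50 for the same probe sets in TAM 111, and 1.14 in TAM 111 for its own calls and 1.06 in TAM 112.

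The larger number in TAM 112 is not a shown difference between the cultivars. Tested directly with limma, the TAM 112 minus TAM 111 contrast of the stage by water differences was called for 0 of 37516 probe sets (0%), with 2653 at an unadjusted p below 0.05, 1 call without the variance trend and up to 11 with 1 array left out. The TAM 111 count was 174 without 3 TAM 111 arrays that lie between the cultivars, 52 without the 4 numbered 2, and 2518 with array weights. It was 610 and 710 without TAM 111 heading wet replicate 1 or 2, 638 and 743 without its heading dry replicate 2 or 3, 699 without its grain filling wet replicate 1, 566 and 456 without its grain filling dry replicate 1 or 2, and 1782 without TAM 112 grain filling dry replicate 3, which enters through the shared spread. The TAM 112 count dropped to 3520 without TAM 112 grain filling dry replicate 1.

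Tubulin genes had the smallest p-values of named genes in the cultivar contrast. tubb2, a beta-tubulin, had 423, 403.3 and 581.6 in dry and 769.8, 993.1 and 1258 in wet TAM 112 leaves at grain filling, against 1637, 1086 and 2340 in dry and 725.7, 1011 and 996.4 in wet TAM 111 leaves. At heading it had 1404, 1633 and 1083 in dry and 1268, 648.5 and 1466 in wet TAM 112 leaves, against 1026, 963.2 and 1342 in dry and 1197, 818.8 and 1139 in wet TAM 111 leaves. At grain filling the dry tubb2 arrays lay below the wet ones in TAM 112 and above them in TAM 111, and at heading they overlapped in both cultivars. The stage by water difference of tubb2 was -1.42 in TAM 112 and 0.75 in TAM 111, and the contrast of -2.16 had an unadjusted p of 0.000944 and an adjusted p of 0.606. tubb3 (-1.02) and tubb1 (-1.57) followed with adjusted p = 0.62 each.

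Mean ratios of RNA quality probe sets also varied with stage and water, but this variation was not tested. The log2 ratio of 3' to 5' signal was 1.65 ± 1.95 in dry and 1.35 ± 0.87 in wet leaves at grain filling for actin, and 1.28 ± 1.07 in dry and 0.37 ± 0.67 in wet leaves at heading (SD, n = 6). For GAPDH it was -1.38 ± 0.66 in dry and -2.58 ± 0.86 in wet leaves at grain filling, and -1.24 ± 0.54 in dry and -1.19 ± 0.60 in wet leaves at heading. For the elongation factor EF1a it was 0.43 ± 2.5 in dry and -0.65 ± 0.75 in wet leaves at grain filling, and -2.04 ± 1.88 in dry and -1.63 ± 1.44 in wet leaves at heading. These ratios rest on dim probe sets. Their mean 3' and 5' signals were 141.6 and 84.06 for actin, 69.76 and 193.8 for GAPDH, and 32.67 and 51.22 for EF1a. The ubiquitin controls were bright, at 18324 (3') and 28321 (5'), and their stage by water differences were -0.39 and -0.41. Pairs with a dim 5' probe set were further apart, at -0.43 (3') and -0.26 (5') for G-6-PDH and 0.58 and -0.1 for Sucsyn. The part of RNA quality in the differences above was not tested.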

How the data were processed

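Total RNA of 24 flag leaf samples was hybridised to Affymetrix wheat arrays. Intensity values on the linear scale were deposited, made with MAS5 per the submitters' processing notes. Its version is not given in the sources used here. Each array had a mean of 500.1 after trimming 2% at each end. Of 61290 probe sets, 111 controls were kept out of the tests. Each of the 37516 others that exceeded 69.0 (the median value) on at least 3 arrays was tested as log2(signal + 11.71), the added value being the 20th percentile, so fold changes of dim probe sets are understated. limma 3.58.1 in R 4.3.3 fitted 1 mean for each of 8 groups (lmFit, contrasts, eBayes with a variance trend, 16 residual and 5.53 prior degrees of freedom), and p-values were adjusted over all tested probe sets. The number of arrays limits the precision. The script was tested on simulated data.

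A table of probe sets and genes dated 2007 named the genes. It gave a gene to 1273 probe sets, 771 genes in all, of which 770 were found in the RefSeq gene table of IWGSC CS RefSeq v2.1, and 59906 probe sets had none. Of the 771, 102 had a symbol other than a locus number, or a synonym, and count as named. A gene was represented by its brightest probe set. Of 31 named genes with several tested probe sets, 25 had all on 1 side of 0. The text names up to 12 called genes with the largest positive and 12 with the largest negative difference among those with a mean signal above the median value, 6 with the smallest p for the cultivar contrast, up to 3 with the smallest p in each list of at least 5 tested genes, and up to 2 probe sets without a name in each direction. Of 21 lists written as name patterns, 4 had 5 tested genes, so 13 lists were drawn from the gene names. The comparison, the lists and the members were chosen with earlier results of these data known. Sequences and genome positions were not used here.

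Alternatives were other pseudocounts, normalizations and filters, a replicate block, cultivar as an additive term, fits of 1 cultivar, array weights, no variance trend, and leaving out arrays: each in turn, 3 TAM 111 arrays known from earlier results to lie between the cultivars, or the 4 TAM 111 arrays numbered 2. Scaling on 2 families of control probe sets was added after seeing the data. No array duplicated another (0).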

Additional observations from a re-analysis of the deposited data

Results flagged for a closer look

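The stage by water difference itself was a tested difference between the stages, called for 7344 probe sets, and for RPL9 (-1.16) the water response was called in opposite directions at the stages. The 18 hybridisation control probe sets used for scaling, which enter no comparison, had a median difference of -0.33, while the dap, lys, phe and thr controls had one of 0.05. Within the sets of 6 arrays, 1 array lay far from the other 5 by Dixon's criterion in 9 of 164 sets (41 genes), or 5.49%. The criterion's nominal share of 1 in 20 is for independent values from a single normal population. Each set here joins both cultivars and the genes share arrays, so the share cannot say whether chance gave these arrays.

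At grain filling in dry leaves this was TPC1 on TAM 112 replicate 3 (4878, the others 3010 to 3535). In wet leaves at grain filling it was GAPN on TAM 112 replicate 2 (11578, the others 8401 to 9201) and hsp16.9A on TAM 112 replicate 3 (17.75, the others 2.239 to 5.984). In dry leaves at heading, Glc1 (1126, the others 562.2 to 679.4) and WZF1 (337.4, the others 185.1 to 226.6) were high on TAM 112 replicate 1, and PR5 was low on TAM 111 replicate 3 (875.1, the others 1393 to 1648). In wet leaves at heading, Gli-8 was low on TAM 111 replicate 1 (65.84, the others 140.3 to 193.8), Rab15 low on TAM 112 replicate 2 (14.97, the others 74.12 to 134.8) and tubb3 high on TAM 111 replicate 3 (6386, the others 5167 to 5587).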

How the results depend on the processing

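The 7344 calls became 4929 to 9571 over the other alternatives and 6287 to 8795 with 1 array left out. Replicate numbers as a block gave 7772 and, within cultivar, 7774. The numbers were not taken as pairing: deviations of same-numbered arrays of different groups correlated at -0.09 to 0.22 (84 pairs, median 0.02, 7 over 0.1), against -0.18 to 0.11 for different numbers (168 pairs, median -0.01, 2 over 0.1). With single arrays left out, the counts ran from 12575 to 14373 for the water response at grain filling and 2963 to 4623 at heading, from 12866 to 14904 for the stage change in dry and 2710 to 4465 in wet leaves, from 3520 to 7419 for TAM 112, 456 to 1782 for TAM 111 and 0 to 11 for the cultivar contrast, and from 2132 to 2810 and 2367 to 3518 for positive and negative differences called at grain filling alone. Scaled on the hybridisation controls, the last pair was 5153 and 332, the heading count 1918, the wet stage change 6102, TAM 112 3425 and TAM 111 706. On the dap, lys, phe and thr controls, positive differences at grain filling alone were 1061, the wet stage change 18331, TAM 112 2540 and TAM 111 426. Without the 3 intermediate and the 4 numbered-2 TAM 111 arrays, the wet stage change gave 2417 and 2137 and TAM 111 gave 174 and 52. Array weights gave TAM 111 2518. No variance trend gave it 623, and the cultivar contrast 1. Signs turned on the hybridisation controls for petC (0.06), PsbP (0.01), SAHH (0.06), TUBA (0.22), tubb1 (0.31) and tubb2 (0.04), with median centring for tubb1 (0.00), and without the 3 intermediate arrays for Rab15 (-0.03, and -0.05 on the dap, lys, phe and thr controls). Differences ran from -0.01 to 0.31 for 6-FEH, -0.14 to 0.36 for Rab15 and -0.19 to 0.02 for tubb1 with 1 array left out. Of 29 called named genes, 21 were called in every fit without 1 array. The cause of these changes was not tested.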
